A study of Mus musculus with 6 samples.

Results

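The genes described here are 10 genes of extracellular NAD and purine signalling among the 15944 genes of a bulk RNA-seq table from mouse regulatory T cells (Tregs, helper-type lymphocytes marked by Foxp3 that hold immune responses in check). They are the ecto-ADP-ribosyltransferase genes Art2a-ps, Art2b and Art3, the ATP-gated channel genes P2rx7 and P2rx4, the NAD glycohydrolase gene Cd38, the ectonucleotidase genes Nt5e and Entpd1, the adenosine deaminase gene Ada and the adenosine receptor gene Adora2a. All 10 had a row, Art2a-ps under the symbol Art2a with its own Ensembl identifier, and all 10 had a mean of at least 1 normalized count. The members were chosen by their place in this pathway with their normalized counts in these same libraries already known. The difference between the sorts is therefore described for them and not tested, and no p-value is given for any of the 10.

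Naïve Tregs came from spleens of C57BL/6 mice and were sorted by an RFP reporter of Foxp3 and a GFP reporter of RORγt, the transcription factor of type 17 lymphocytes. One group held CD3+ CD4+ Foxp3(RFP)+ cells positive for RORγt(GFP), called biTregs by the submitters, and the other held CD3+ CD4+ Foxp3(RFP)+ cells negative for RORγt(GFP) and positive for the chemokine receptor CCR6, called Treg17 cells. CCR6 was a gate of the second sort only, so the sorts differ in that gate as well as in RORγt. Each group had 3 libraries, numbered as replicates, with no label that ties a library to an animal, and with neither age nor sex of the mice given.

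NAD and ATP leave stressed or dying cells and act on T cells from outside. On mouse T cells ecto-ADP-ribosyltransferases attach ADP-ribose from NAD to surface proteins, and modification of the P2X7 channel opens it without ATP, which leads to shedding of surface proteins and cell death to which Tregs are known to be sensitive. CD38 removes extracellular NAD. In parallel, CD39 (Entpd1) degrades ATP and ADP to AMP, and CD73 (Nt5e) turns AMP into adenosine, which acts on T cells through the receptor encoded by Adora2a and is removed by adenosine deaminase. The surface pair of CD39 and CD73 is a known suppressive tool of mouse Tregs.

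Columns summed to 11325902 to 11890770. Steps of 0.82 to 1.25 among low values, taken as 1 read each, put the depth near 9160000 to 14500000 reads. RORγt+ replicate 3 stood apart, since 1247 of its genes were at 0, where the other 5 libraries had 438 to 638. Its log2 values correlated with theirs at 0.932 to 0.938 across genes, and theirs with each other at 0.947 to 0.967. It gave the highest of the 3 RORγt+ values for 7 of the 10 members and for 40.3% of genes with 3 different values, so results are given with and without it where they change. Markers of the labelled cells were abundant. Foxp3 lay between 9790 and 12609 normalized counts, Cd4 between 8038 and 12516 and Cd3e between 5409 and 8913. Of the 6 markers on this list, 3 (Foxp3, Il2ra and Ctla4) were higher in all RORγt+ libraries, as were 8.31% of all genes. The sorts overlapped in Cd3e, Cd3d and Cd4, and none of the 6 passed the test between the sorts. Among 8 lists of markers of other lymphoid and myeloid cells and 1 of red cells and platelets, no gene passed the test between the sorts. The red cell and platelet list was represented by haemoglobin genes only. The summed level of the 6 B cell markers was 6554 to 9907 in the RORγt+ and 7793 to 9368 in the CCR6+ RORγt− libraries, nearly all of it Ighm.

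Of the 10 members, 9 had a lower mean on the log2 scale in RORγt+ Tregs, with a median log2 difference of −0.44 over the 10 against −0.01 over all genes, of which 51.2% lay below 0. All 3 RORγt+ values lay below all 3 CCR6+ RORγt− values in 6 members (Art2a-ps, Art2b, Art3, Cd38, Nt5e and Adora2a), a pattern seen in 9.81% of all genes in that direction and in 18.1% in either. The sorts overlapped in P2rx7, P2rx4, Entpd1 and Ada, and no member was higher in all RORγt+ libraries. The genes that limma called over the whole table at an adjusted p of 0.05, 0.564% of all genes and 0.245% in the lower direction, included 2 members, Art2a-ps and Art3, both lower. Neither remained with a replicate block or in 5 of the 6 fits with a library left out. These counts describe the members and are no test of them, because this contrast chose them, and nothing is read from the shares. In bulk RNA, fewer cells that express a gene and less RNA per cell cannot be told apart.

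**Figure D1:**
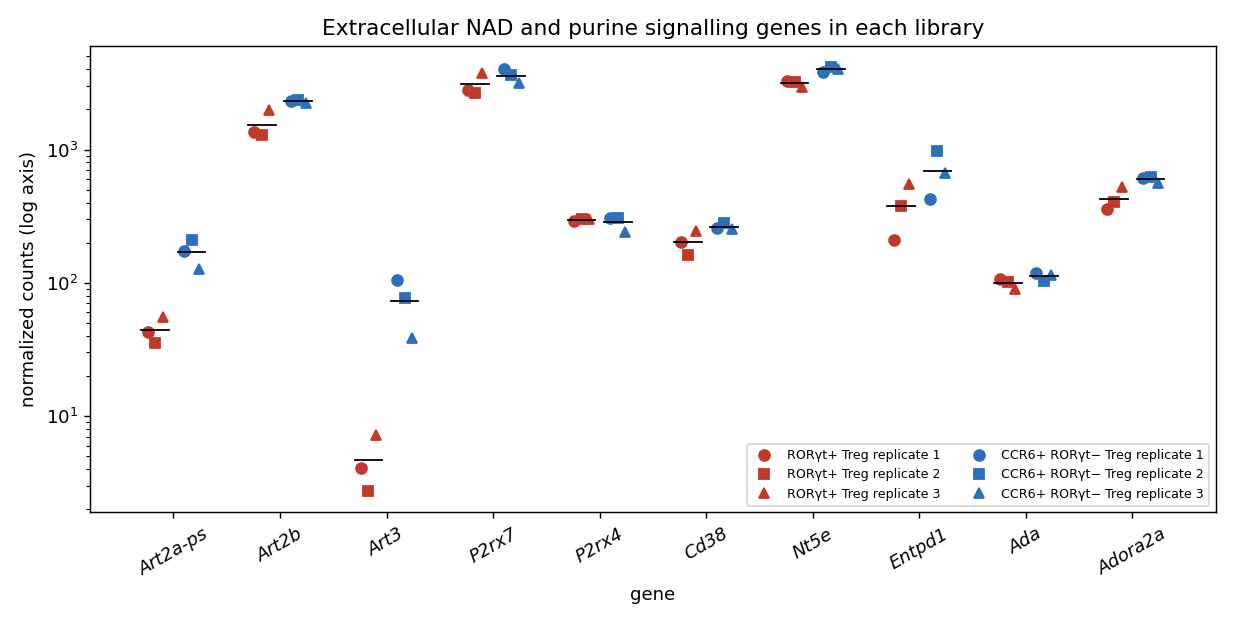
Normalized counts (log axis) of the 10 genes in each of the 6 libraries, with red for RORγt+ and blue for CCR6+ RORγt− Tregs, a symbol shape per replicate number and a black line at each group mean. Art3 shows the widest gap, 2.74 to 7.25 against 38.6 to 105, and P2rx4 and Ada values of both sorts lie at the same height.

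Among the ecto-ADP-ribosyltransferases, Art3 and Art2a-ps had the largest log2 differences of the 10 members, and that of Art2b was smaller than that of Entpd1. Art2a-ps (chromosome 7, 101552453 to 101560865, minus strand, GRCm38) and Art2b (chromosome 7, 101576970 to 101585600, minus strand) are nearby copies. They are 16104 bases apart, with 1 annotated gene between them. Art2b encodes the enzyme of the pair that is active in C57BL/6 mice, and Art2a carries an early stop codon in this strain. In the GENCODE transcripts, 755 of 864 aligned bases (87.4%) of Art2a-ps matched the coding sequence of Art2b, which is 870 bases long. Read in the frame of Art2b, Art2a-ps first met a stop at codon 161 of 290, where the substitution from Art2b to Art2a-ps was C481T, counted from the A of the Art2b start codon. The stretch of coding bases 454 to 510 is shown because it holds this codon, in capitals, and because the differences around it are what lets reads of the copies be told apart.
Art2b: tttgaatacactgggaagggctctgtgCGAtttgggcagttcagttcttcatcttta
Art2a-ps: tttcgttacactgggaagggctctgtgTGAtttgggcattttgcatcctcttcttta

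In normalized counts, as for all levels below unless another scale is named, Art2a-ps stood at 42.8, 35.6 and 55 in RORγt+ replicates 1 to 3 and at 173, 210 and 128 in CCR6+ RORγt− replicates 1 to 3. The lowest CCR6+ RORγt− library was above the highest RORγt+ library, and the group means of 44.4 ± 9.82 and 170 ± 41.1 (SD, n = 3) differed 3.83-fold. The log2 difference was −1.91 ± 0.28 (SE, on the scale of log2 of the value plus 1, RORγt+ minus CCR6+ RORγt−, as for all log2 differences here).

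Art2b was far more abundant, with 1355, 1285 and 1983 normalized counts in the RORγt+ libraries and 2333, 2354 and 2227 in the CCR6+ RORγt− libraries. The sorts did not overlap, but RORγt+ replicate 3 came close to the CCR6+ RORγt− libraries, which differed among themselves by a factor of only 1.06. The means of 1541 ± 384 and 2304 ± 67.9 (SD, n = 3) gave a log2 difference of −0.61 ± 0.18 (SE), and of −0.80 without RORγt+ replicate 3.

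Of the 31-base windows of Art2a-ps, 20% also occur in Art2b, and 8.73% of the Art2b windows occur in Art2a-ps, so part of the reads of either gene may have been assigned to the other and the level of Art2a-ps is uncertain. The sum of both genes, which does not depend on that split, was 1398, 1321 and 2038 in the RORγt+ and 2506, 2563 and 2354 in the CCR6+ RORγt− libraries, a log2 difference of −0.67. Within the sum, Art2a-ps made up 3.06%, 2.69% and 2.70% in the RORγt+ libraries and 6.90%, 8.18% and 5.42% in the CCR6+ RORγt− libraries. The share was thus lower in every RORγt+ library, replicate 3 included, where Art2b itself was high.

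Art3 (chromosome 5, 92331827 to 92414628, plus strand) encodes a family member anchored at the cell surface for which enzyme activity has not been established. It was the member with the widest gap, at 4.08, 2.74 and 7.25 normalized counts in the RORγt+ libraries, which is a handful of reads, and 105, 76.5 and 38.6 in the CCR6+ RORγt− libraries. Every CCR6+ RORγt− value exceeded every RORγt+ value, although both groups were spread within themselves, by 2.65-fold and 2.71-fold from the lowest to the highest library. The means were 4.69 ± 2.32 and 73.3 ± 33.2 (SD, n = 3), and the log2 difference was −3.67 ± 0.51 (SE), with −4.07 to −3.36 when single libraries were left out. A pseudocount of 5 in place of 1 moved it to −2.94, since the RORγt+ values are of that size.

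The Art3 locus spans Cxcl10, a chemokine gene on the opposite strand, and 2.48% of the Art3 windows occur in Cxcl10 transcripts. No source used here states whether counting used strand. Cxcl10 itself had values of 34.1, 79 and 17.2 in the RORγt+ and 54.0, 71.8 and 51.6 in the CCR6+ RORγt− libraries. Its sorts overlapped, unlike those of Art3 (log2 difference −0.68 ± 0.53, SE, limma adjusted p = 0.728).

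RefSeq (GRCm38.p6) promoter windows, from 250 bases before to 50 after a transcript start, were at hand for 8 of the 10 members, 12 windows in all. They were searched for AGGTCA, the core element of sites bound by ROR factors and other nuclear receptors, on both strands. The element occurred in 3 of the 12 windows, of Art3, P2rx7 and P2rx4, and in 16.3% of all 32851 windows of this length. Art3 windows at chr5:92386637-92386936 and chr5:92387884-92388183 and a P2rx7 window at chr5:122643677-122643976 held no match. A match is a description of letters and no evidence of binding. The Art3 window that holds the element is shown because Art3 differed most. It lies at chr5:92331577-92331876 on the plus strand, with the match (TGACCT, the element on the opposite strand) in capitals.
Art3 promoter: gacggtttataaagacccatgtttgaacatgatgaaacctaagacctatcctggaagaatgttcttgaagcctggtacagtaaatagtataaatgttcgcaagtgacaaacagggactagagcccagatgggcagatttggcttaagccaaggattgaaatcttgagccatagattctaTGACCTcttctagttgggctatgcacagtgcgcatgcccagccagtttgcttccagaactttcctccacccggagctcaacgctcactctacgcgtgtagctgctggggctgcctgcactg

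The P2X channel genes lie near each other on chromosome 5, P2rx7 at 122643911 to 122691432 and P2rx4 at 122707544 to 122729738, both on the plus strand. They are 16111 bases apart, with 1 annotated gene between them. P2rx7, the channel gated by ATP or by ADP-ribosylation, was abundant in both sorts, with 2798, 2676 and 3770 for the RORγt+ and 4008, 3624 and 3153 in the CCR6+ RORγt− libraries. RORγt+ replicate 3 exceeded both of the lower CCR6+ RORγt− libraries, so the sorts overlapped. The log2 difference was −0.23 ± 0.17 (SE), and −0.39 without RORγt+ replicate 3, where the remaining values did not overlap. The table holds 1 value per gene, so the splice forms of P2rx7, which differ in their response to NAD, are not separated.

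P2rx4, a channel of higher ATP affinity, had values of 289, 302 and 301 in the RORγt+ and 309, 304 and 240 in the CCR6+ RORγt− libraries. It was the only member with a positive log2 difference, 0.07 ± 0.17 (SE), whose sign turned to −0.04 in 1 of the fits with a library left out. P2rx7 per kilobase of the longest transcript exceeded P2rx4 by 7.65, 6.99 and 9.87 times in the RORγt+ and by 10.2, 9.41 and 10.4 times in the CCR6+ RORγt− libraries, and by 5.28 to 7.84 times over the 6 libraries with median lengths.

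Cd38 (chromosome 5, 43868553 to 43912375, plus strand), which hydrolyses NAD and so competes with the transferases for it, had values of 203, 163 and 245 in the RORγt+ and 259, 282 and 252 in the CCR6+ RORγt− libraries. The highest RORγt+ and the lowest CCR6+ RORγt− value were 245 and 252, and the sorts overlapped once columns were scaled to equal totals. The means were 204 ± 41.2 and 264 ± 15.7 (SD, n = 3), with a log2 difference of −0.39 ± 0.20 (SE). Cd38 is also a gene of B and plasma cells. The summed plasma cell markers were 761 to 981 in RORγt+ and 628 to 702 in CCR6+ RORγt− libraries. Nearly all of this sum was Xbp1, with a mean of 733 over all libraries against 22.1 for Jchain, 6.93 for Sdc1 and 1.69 for Mzb1. The part of plasma cells in the Cd38 level was not tested.

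Nt5e (chromosome 9, 88327197 to 88372092, plus strand), which encodes CD73, was evenly expressed within each sort, with 3284, 3198 and 2932 for the RORγt+ and 3806, 4156 and 4041 in the CCR6+ RORγt− libraries. The gap between the sorts was small and exceeded the spread within them. The means of 3138 ± 184 and 4001 ± 179 (SD, n = 3) gave a log2 difference of −0.35 ± 0.11 (SE), and −0.39 to −0.30 with single libraries left out.

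Entpd1 (chromosome 19, 40612366 to 40741602, plus strand), which encodes CD39, was the least even abundant member, with 210, 376 and 551 for the RORγt+ and 422, 977 and 667 in the CCR6+ RORγt− libraries. The highest and lowest libraries differed 2.62-fold and 2.31-fold within the sorts, and the sorts overlapped through RORγt+ replicate 3 and CCR6+ RORγt− replicate 1. The log2 difference of −0.89 ± 0.41 (SE) was −1.21 without RORγt+ replicate 3, −0.52 without RORγt+ replicate 1 and −0.59 without CCR6+ RORγt− replicate 2. CCR6+ RORγt− replicate 2, the highest for Entpd1, also held the most haemoglobin RNA. The summed level of the haemoglobin genes was 6107 there against 72.6 to 1207 in the other 5 libraries. The part of other cells in the Entpd1 level was not tested.

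Whether CD73 RNA exceeded CD39 RNA per kilobase depended on the transcript length used. With the longest transcripts the ratio of Nt5e to Entpd1 was 16.5, 9 and 5.62 in the RORγt+ and 9.52, 4.50 and 6.40 in the CCR6+ RORγt− libraries, and with the median lengths, tried after seeing the data, it was 2.37, 1.29 and 0.806 against 1.36, 0.644 and 0.917. The ratio overlapped between the sorts either way.

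Adora2a (chromosome 10, 75316877 to 75334784, plus strand), the receptor through which adenosine raises cyclic AMP in T cells, had values of 356, 406 and 526 in the RORγt+ and 613, 620 and 558 in the CCR6+ RORγt− libraries. The sorts did not overlap, and RORγt+ replicate 3 was again the closest to the other sort. The means were 429 ± 87.4 and 597 ± 33.6 (SD, n = 3), with a log2 difference of −0.49 ± 0.18 (SE) and of −0.65 without RORγt+ replicate 3.

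Ada (chromosome 2, 163726584 to 163750239, minus strand), which deaminates adenosine, differed little, with 107, 102 and 89.5 for the RORγt+ and 119, 102 and 114 in the CCR6+ RORγt− libraries. RORγt+ replicate 1 exceeded CCR6+ RORγt− replicate 2, and the log2 difference was −0.17 ± 0.20 (SE).

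Levels of different genes were compared per kilobase of the longest annotated transcript. In RORγt+ Tregs Nt5e (786 ± 46, SD, n = 3), P2rx7 (624 ± 121) and Art2b (547 ± 136) formed the upper tier, and P2rx7 overlapped with both of the others there. In CCR6+ RORγt− Tregs these genes were at 1001 ± 44.7 for Nt5e, 817 ± 24.1 for Art2b and 728 ± 86.8 for P2rx7, where Nt5e lay above and the other two overlapped. Adora2a followed with 165 ± 33.7 and 230 ± 13 in the RORγt+ and CCR6+ RORγt− sorts. Entpd1 was at 89.7 ± 40.4 and 163 ± 65.9, and Art2a-ps at 35.3 ± 7.81 and 135 ± 32.7, overlapping each other in the CCR6+ RORγt− sort alone. P2rx4 (76.3 ± 1.93 and 73.0 ± 9.84), Cd38 (62.3 ± 12.6 and 80.9 ± 4.8) and Ada (58.9 ± 5.3 and 66.3 ± 5.1) lay close together. In RORγt+ Tregs Cd38 overlapped with both of the others, while P2rx4 was above Ada in all 3 libraries. Art3 was lowest, at 2.58 ± 1.28 and 40.4 ± 18.3. With the median transcript length in place of the longest, 9 of the 10 genes took another rank, with Entpd1 at rank 3, and Art3 stayed the lowest.

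**Figure D2:**
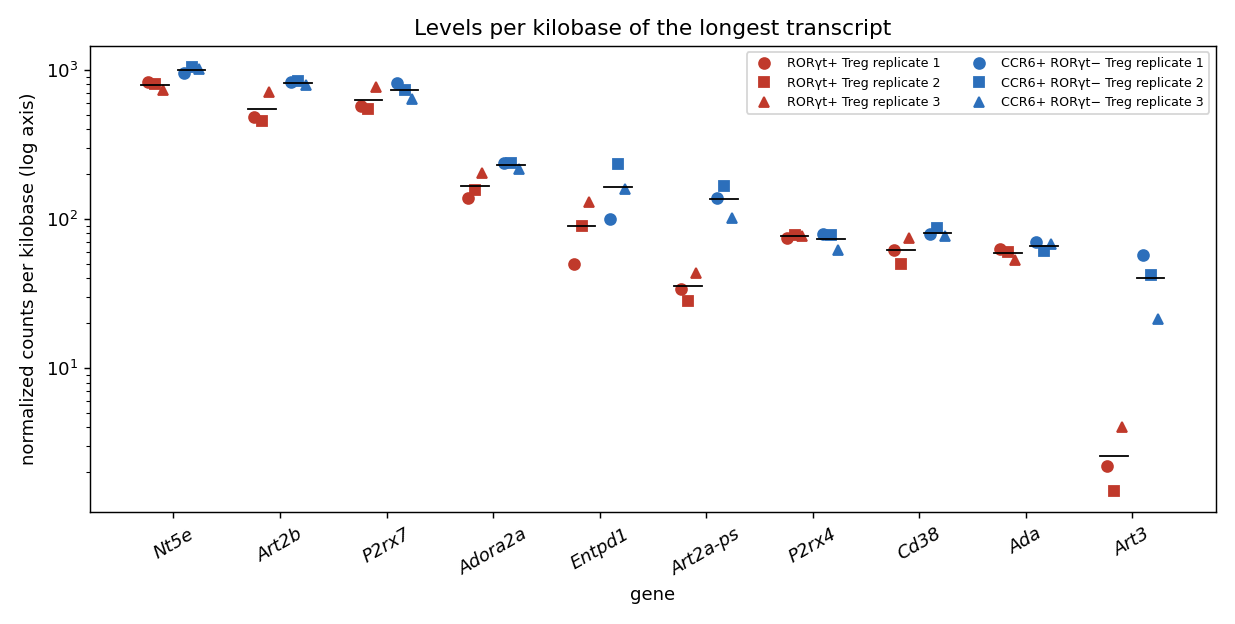
Normalized counts per kilobase of the longest transcript (log axis), genes ordered by their mean over the 6 libraries, with red for RORγt+ and blue for CCR6+ RORγt− Tregs, a symbol shape per replicate number and a line at each group mean. Nt5e, Art2b and P2rx7 lie well above the rest, and Art3 in RORγt+ Tregs lies far below.

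When each library was left out in turn, the log2 difference stayed below 0 in all 6 fits for every member except P2rx4. Leaving out RORγt+ replicate 3 widened the difference of Art2a-ps (−2.07), Art2b, Art3 (−3.98), P2rx7, Cd38 (−0.54), Entpd1 and Adora2a, and narrowed that of Nt5e (−0.30) and Ada (−0.10). Without it 8 members had no overlap and all 8 were lower in RORγt+ Tregs, where 18.4% of all genes then showed this pattern with 2 libraries against 3. As a description only, that fit called 174 genes (1.09%), 0.558% of all genes in the lower direction, with Art2a-ps, Art2b and Art3 among them. The other 5 fits called 4 to 10 genes and no member.

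**Figure D3:**
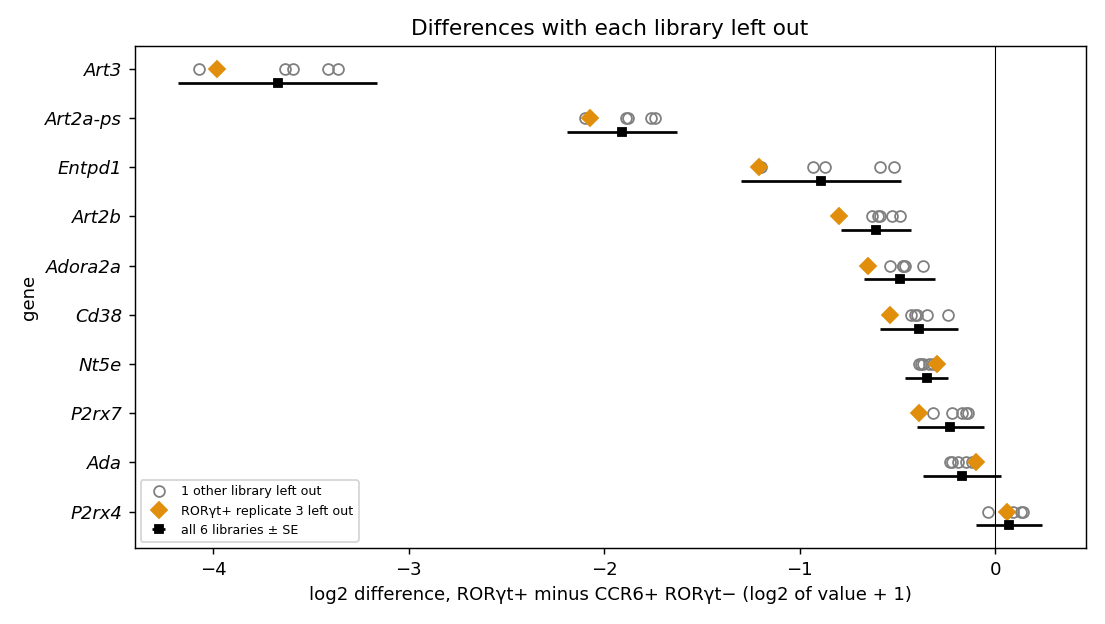
Log2 difference of each gene (RORγt+ minus CCR6+ RORγt−) with all 6 libraries (black squares with SE), without RORγt+ replicate 3 (orange diamonds) and without 1 of the other 5 libraries (open circles). All points of the genes other than P2rx4 lie left of 0, and those of P2rx4 lie on both sides. The diamonds of Art2b, P2rx7, Cd38, Entpd1 and Adora2a are the furthest from 0 among the fits of each gene.

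The other genes of the pathway were read from a list by role, of which 56 genes were in the table. By limma over all genes none of the 56 passed an adjusted p of 0.05 in either direction, 8 had an unadjusted p under 0.05 (10.9% of all genes did), and the median log2 difference was −0.05. The sorts did not overlap in 7 of them with RORγt+ higher and in 4 with RORγt+ lower, where 8.31% and 9.81% of all genes did so, and nothing particular to the list is read from these counts. Robust variances, upper-quartile scaling or a filter at a mean of 10 gave 1 call (Enpp5), the fit without RORγt+ replicate 3 gave 2 (Enpp5 and Pycard), and array weights gave 4 (Enpp5, Acpp, Slc17a9 and Pycard).

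Enpp5, a membrane member of the nucleotide pyrophosphatase family, came nearest to the threshold. Its values were 101, 80.3 and 97.6 in the RORγt+ and 213, 233 and 203 in the CCR6+ RORγt− libraries (log2 difference −1.21 ± 0.19, SE, limma adjusted p = 0.0522). All RORγt+ values were below all others. Alpl, an alkaline phosphatase that can turn AMP into adenosine, was low in both sorts, at 11.8, 11 and 3.72 against 17.2, 32.6 and 25.2 (limma adjusted p = 0.365). Entpd4 and Entpd5, intracellular relatives of CD39, had log2 differences of 0.15 and 0.41 (limma adjusted p = 0.784 and 0.523). Acpp, a phosphatase whose membrane form also makes adenosine from AMP, pointed the other way, at 232, 287 and 239 against 118, 150 and 113 (log2 difference 0.99 ± 0.20, SE, limma adjusted p = 0.11), and was named after its values were seen.

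Among surface transferases outside the 10, Art4 stood at 44.5 to 51.1 normalized counts in the RORγt+ and 47.1 to 57.4 in the CCR6+ RORγt− libraries (limma adjusted p = 0.911). The hydrolases that remove ADP-ribose from proteins, Adprh and Adprhl2, had log2 differences of 0.22 and 0.04 (limma adjusted p = 0.8 and 0.97). Sarm1, an intracellular NAD glycohydrolase, was at 17 to 25.2 against 25.3 to 54.6 (limma adjusted p = 0.635). NAD synthesis and salvage genes had a median log2 difference of −0.12 over 10 genes, with Nampt, the rate-limiting enzyme of salvage, at −0.18 and the NAD kinase Nadk at 0.07.

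Among release channels and transporters, the channel gene Panx1 and the scramblase gene Ano6, both linked to the response to open P2X7, had log2 differences of −0.04 and −0.09 (limma adjusted p = 0.978 and 0.892). Slc17a9, the vesicular nucleotide transporter, had values of 725, 658 and 608 in the RORγt+ and 473, 446 and 448 in the CCR6+ RORγt− libraries (log2 difference 0.54 ± 0.14, SE, limma adjusted p = 0.201), and was named after its values were seen. So was Lrrc8a, at 816, 777 and 848 against 665, 495 and 535 (log2 difference 0.54 ± 0.15, SE, limma adjusted p = 0.253). Of the 7 genes of this role, these 2 were higher and 1 (Panx2, mean 1.67) was lower in all RORγt+ libraries. Of the genes listed as P2Y receptors by name alone, P2ry10 and P2ry10b varied more among libraries of a sort than between sorts. P2ry10 ranged from 1313 to 2996 in the RORγt+ libraries alone. The nucleoside transporter Slc28a2 and the surface dipeptidyl peptidase Dpp4 had log2 differences of 0.23 and −0.29 (limma adjusted p = 0.613 and 0.696).

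Of the genes linked to what follows P2X7 opening, Adam10, a surface protease, had a log2 difference of −0.04 (limma adjusted p = 0.976). Pycard, the inflammasome adaptor, had values of 1177, 1153 and 1397 in the RORγt+ and 682, 777 and 652 in the CCR6+ RORγt− libraries (log2 difference 0.82 ± 0.14, SE, limma adjusted p = 0.0648), and was also named after its values were seen. The adenosine receptors other than Adora2a were not analysed here.

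**Figure D4:**
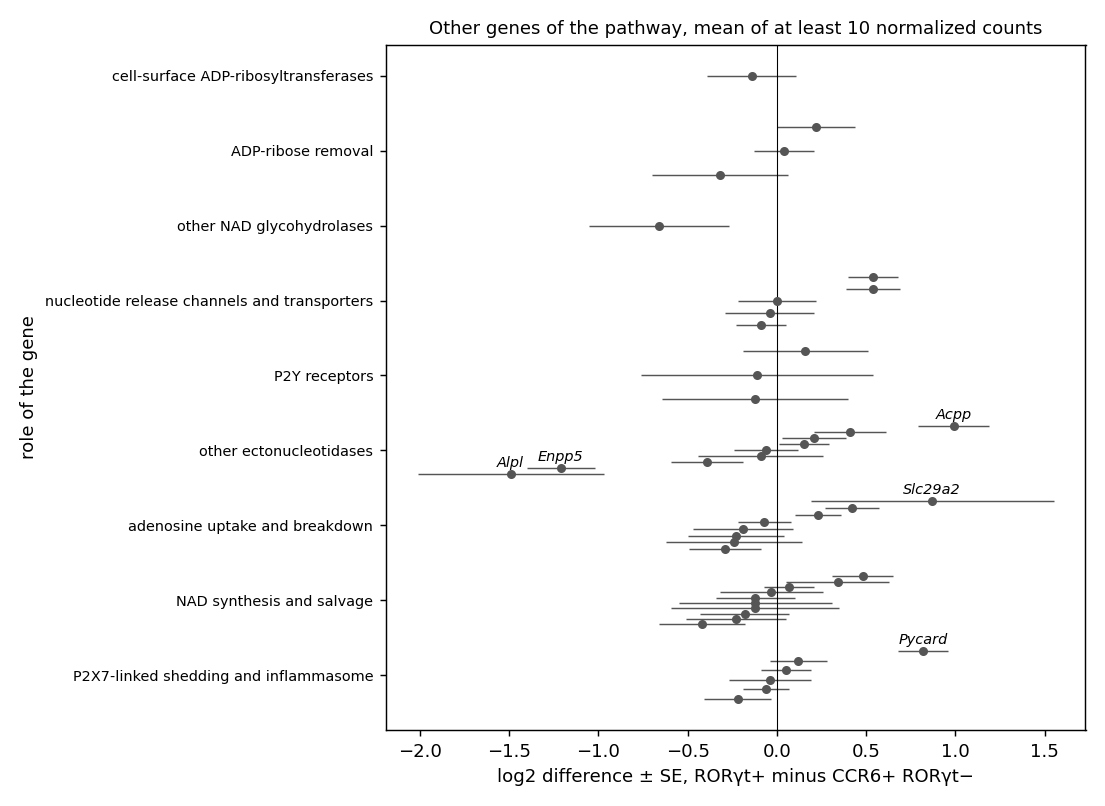
Log2 difference with SE (RORγt+ minus CCR6+ RORγt−) of the 46 genes of the list that had a mean of at least 10 normalized counts, grouped by role, with those beyond 0.8 in either direction named. Most points lie near 0, Enpp5 and Alpl lie to the left, and Acpp, Slc29a2 and Pycard lie to the right.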

How the data were processed

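RNA of 6 libraries was measured by sequencing in bulk. The authors deposited 1 signal value per gene and library, normalized counts to 2 decimals; the submitters' processing notes name Salmon 1.2.0, DESeq2 without a version and GRCm38, in no stated role or order. No source used here gives the annotation, strand setting or filters behind them, and the values are not raw counts, so no count test was run. Values were analysed as log2(value + 1) for all 15944 genes, each with a mean of at least 1, with limma 3.58.1 in R 4.3.3 (1 group term, moderated variances with an intensity trend; two-sided p-values adjusted over all genes by Benjamini-Hochberg, threshold 0.05). Differences on this scale understate those of low genes. The fit was tested on simulated counts.

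Positions, transcript lengths and transcript sequences came from GENCODE M21 (GRCm38), in which 15851 gene identifiers were found, and promoters from RefSeq (GRCm38.p6). The members, gene lists and the rule for named genes (all members; pathway genes past the threshold, the 2 most abundant per role with a mean of at least 5, and those without overlap, an absolute log2 difference of at least 1 and a mean of at least 10; the sort markers and the most abundant marker per list) were chosen with earlier results of these data known. Of the genes this rule names, 1 pathway gene is counted with its list and not reported here. Without labels on animals, p-values cover only library-to-library spread, possibly technical. Alternatives were other pseudocounts, scalings, filters and variance settings, a replicate block and each library left out.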

Additional observations from a re-analysis of the deposited data

How the results depend on the processing

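No member but P2rx4 changed the sign of its log2 difference under any alternative run, and 159 alternative values for members lay within 1 SD (of log2 values within the sorts, pooled over both) of the value with all libraries; the 1 exception was Art3 with a pseudocount of 5, −2.94. Limma called 90 genes over the whole table, 2 of them members. With a replicate block it called 1 gene and 0 members. Deviations from the group means of libraries with the same number correlated at −0.105, −0.022 and −0.184. Within a sort, deviations from the group mean sum to 0 for each gene, so their correlations lean below 0 by construction. They were −0.548, −0.495 and −0.455 among the CCR6+ RORγt− libraries. Deviations of RORγt+ replicate 3 correlated with those of replicates 1 and 2 of its sort at −0.669 and −0.668. This library weighs on the values between the sorts. The correlations of libraries with the same number cannot decide whether the numbers pair the libraries. Array weights gave 358 genes, and leaving out single libraries gave 4 to 174 genes and 0 to 3 members. Calls among the other pathway genes numbered 4 with array weights, 1 each with upper-quartile scaling, a mean of at least 10 and robust variances, and 0 to 2 with single libraries left out. With the median transcript length 9 members changed rank by level. Uncalled genes changed sign near 0. With upper-quartile scaling Adprhl2 was −0.01. Array weights gave −0.07 for Adprhl2, 0.33 for P2ry10b, 0.05 for Nampt, −0.02 for Nadk and 0.13 for Adam10. Leaving out single libraries gave −0.10 to 0.13 for Adprhl2, −0.31 to 0.18 for Panx1, −0.06 to 0.53 for P2ry10, −0.44 to 0.47 for P2ry10b, −0.35 to 0.11 for Nampt, −0.04 to 0.14 for Nadk and −0.18 to 0.18 for Adam10. The causes were not tested. Art3 in RORγt+ libraries rests on a few reads each, which limits its fold.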
